A study of Mus musculus with 18 samples.

Results

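The genes described here are 36 chaperones and co-chaperones of the cytosol and mitochondria: heat shock proteins, their helpers, subunits of the cytosolic chaperonin and its partner prefoldin, and the mitochondrial folding machine. They were taken from a list of names, not from their values. Of the 36 genes, 33 had a probe set listed with that gene alone on an Affymetrix expression array of 22690 probe sets, and each gene is represented by its probe set with the highest mean signal over the 18 arrays. Hsp90ab1 and Hsf1 were not listed in the gene table used here, and Ptges3 was listed only on probe sets shared with a second gene, so these 3 were not analysed here. All 33 lay above the filter for low signal, a mean log2 value of at least 4, which left 7382 of 12394 genes for testing.

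The RNA came from mouse embryo fibroblasts (MEFs), primary cells grown out of embryos. All cultures were grown for 2 passages in DMEM with serum, and 5 ug of total RNA of each was labelled. The 9 controls carry the normal set of chromosomes (Wt in the labels). The trisomic cells carry 3 copies of chromosome 13 (Ts13, 4 arrays), chromosome 16 (Ts16, 3 arrays), chromosome 1 (Ts1, 1 array) or chromosome 19 (Ts19, 1 array). The labels name no strain, embryo age or origin of the extra chromosome. The labels do not say whether each culture came from an embryo of its own, and the p-values can only speak of the spread from sample to sample. Signals are log2 values with an unknown zero, and levels are compared between arrays for 1 gene, never between genes. In such bulk samples fewer cells of a type and less RNA per cell cannot be told apart.

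Chaperones hold newly made or unfolded proteins until they reach their shape. Hsp70 proteins, loaded by Hsp40 (DnaJ) co-chaperones, pass clients to Hsp90 or to the ring-shaped chaperonin TRiC/CCT, and Hsp60 with its lid Hsp10 does the same work inside mitochondria. When unfolded proteins build up, the transcription factor HSF1 binds heat shock elements, inverted repeats of the letters GAA, and induces Hspa1a, Hspa1b, Hspb1, Dnajb1, Hsph1 and Bag3 strongly. An extra chromosome can yield proteins in excess of their partners, and the question here is whether the chaperone genes are raised in trisomic cells.

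Heat shock elements near the start sites are shown because HSF1 acts through them. RefSeq promoter windows (GRCm38.p6, 250 bases before to 50 after the start site) were found for 28 of the 33 measured genes. Hspa8, Hspa9, Hsp90aa1, Cct4 and St13 had no entry. An element of 3 units, GAANNTTCNNGAA or its reverse complement TTCNNGAANNTTC, searched on both strands and with overlaps allowed, lay in the windows of 5 of the 28 genes (17.9%), against 0.662% of the 27025 genes with a window. The 5 genes were Hspd1, Hspe1, Dnajb6, Chordc1 and Hsph1. The shorter form of 2 units, GAANNTTC or TTCNNGAA, lay in 17 of 28 (60.7%), against 16.97% of all genes with a window. In the stretches below, printed 5′ to 3′ along the gene, capitals mark every 2-unit match, and a 3-unit element shows as a longer run of capitals. The first stretch, chr1:55088028-55088097 on the plus strand, lies before Hspe1 and within the annotated span of Hspd1, which is transcribed the other way, so both genes share its element. The Dnajb6 stretch is chr5:29735828-29735887 (plus strand) and that of Chordc1 is chr9:18292227-18292286 (plus strand, across the start site). For the classical inducible genes, the Hspb1 stretch is chr5:135887779-135887848 (plus strand) and that of Hspa1b is chr17:34959309-34959368 (minus strand). The Hspb1 stretch holds separate 2-unit matches only, and that of Hspa1b holds 1 such match. The windows of Hspa1a and Hspa1b are identical at 296 of 300 bases.
Hspe1 and Hspd1: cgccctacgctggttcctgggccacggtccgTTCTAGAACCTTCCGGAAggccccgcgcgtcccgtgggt
Dnajb6: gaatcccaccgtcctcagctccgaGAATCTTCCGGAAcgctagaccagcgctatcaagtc
Chordc1: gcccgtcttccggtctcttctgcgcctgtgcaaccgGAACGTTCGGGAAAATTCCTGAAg
Hspb1: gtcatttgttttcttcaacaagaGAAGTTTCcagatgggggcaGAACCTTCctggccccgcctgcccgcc
Hspa1b: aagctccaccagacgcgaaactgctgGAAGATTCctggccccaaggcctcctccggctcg

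The arrays fell into 2 classes of RNA quality, and the comparisons were made within them. The array's control probe sets for the 3′ and the 5′ end of Gapdh differed by -0.20 to 1.41 log2 units on 15 arrays, called intact here, and by 5.57 to 6.94 on the other 3, called 3′-biased. The biased arrays were trisomy 13 replicates 3 and 4 and trisomy 16 replicate 1, and actin probe sets gave the same split. Array medians were 5.62 to 5.91 on the intact arrays and 5.11 to 5.29 on the biased ones. No control array was biased, so a comparison of biased arrays with controls cannot tell RNA quality and trisomy apart. All 12 fibroblast and all 5 smooth muscle markers lay above the filter, as did 3 of 5 neural and 2 of 5 epithelial markers, while none of the markers of endothelium (5 genes), red cells (2) or liver (3) did. The 2 epithelial markers had a median difference from controls of 1.74 in trisomy 1 and 1.94 in trisomy 19, and the 3 neural markers one of 0.67 in intact trisomy 13 and -0.82 in intact trisomy 16. None of these markers passed by limma on intact arrays against controls, 1 marker in each of these 4 cases had an unadjusted p under 0.05, and their part in the chaperone values was not tested. The mean of the 5 epithelial markers was 2.99 to 4.16 in controls and 3.53 to 4.52 on intact trisomic arrays, and the mean of the 14 macrophage markers was 2.57 to 4.58 in controls, 2.65 to 2.88 on intact trisomic arrays and 5.15 on trisomy 13 replicate 4. All comparisons with controls below share the same 9 control arrays, except the trisomy 16 pairs, which use 3 of them.

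No chaperone gene passed the test on intact trisomic arrays in the fit without blocks. Hspa1b and Hspb1 passed when the 2 intact trisomy 16 arrays were paired with their same-numbered controls, where 5.74% of all genes did. That paired fit was added after the planned ones. Hspa14 passed under a block by replicate number over all arrays. That block does not pair the trisomy 13 cultures and also raised the count over all genes. These results are given further on. Over the 6 intact trisomic arrays together, and leaving out genes on chromosomes 1, 13, 16 and 19, 0 of 29 members passed at a limma adjusted p under 0.05, where 0.0323% of 6188 genes did, and 0 members had an unadjusted p under 0.05 (303 genes did). The lowest adjusted p of a member was 0.928. The median difference from controls was -0.01 for the members and -0.06 for all genes tested, and the members ranged from -0.27 to 0.42. No member had all 6 trisomic arrays on 1 side of all 9 controls, where 0.0485% of genes did. The members varied little in the controls themselves: their SD over the 9 arrays had a median of 0.27 log2 units (0.10 to 0.74), against 0.38 over all genes tested.

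**Figure D1:**
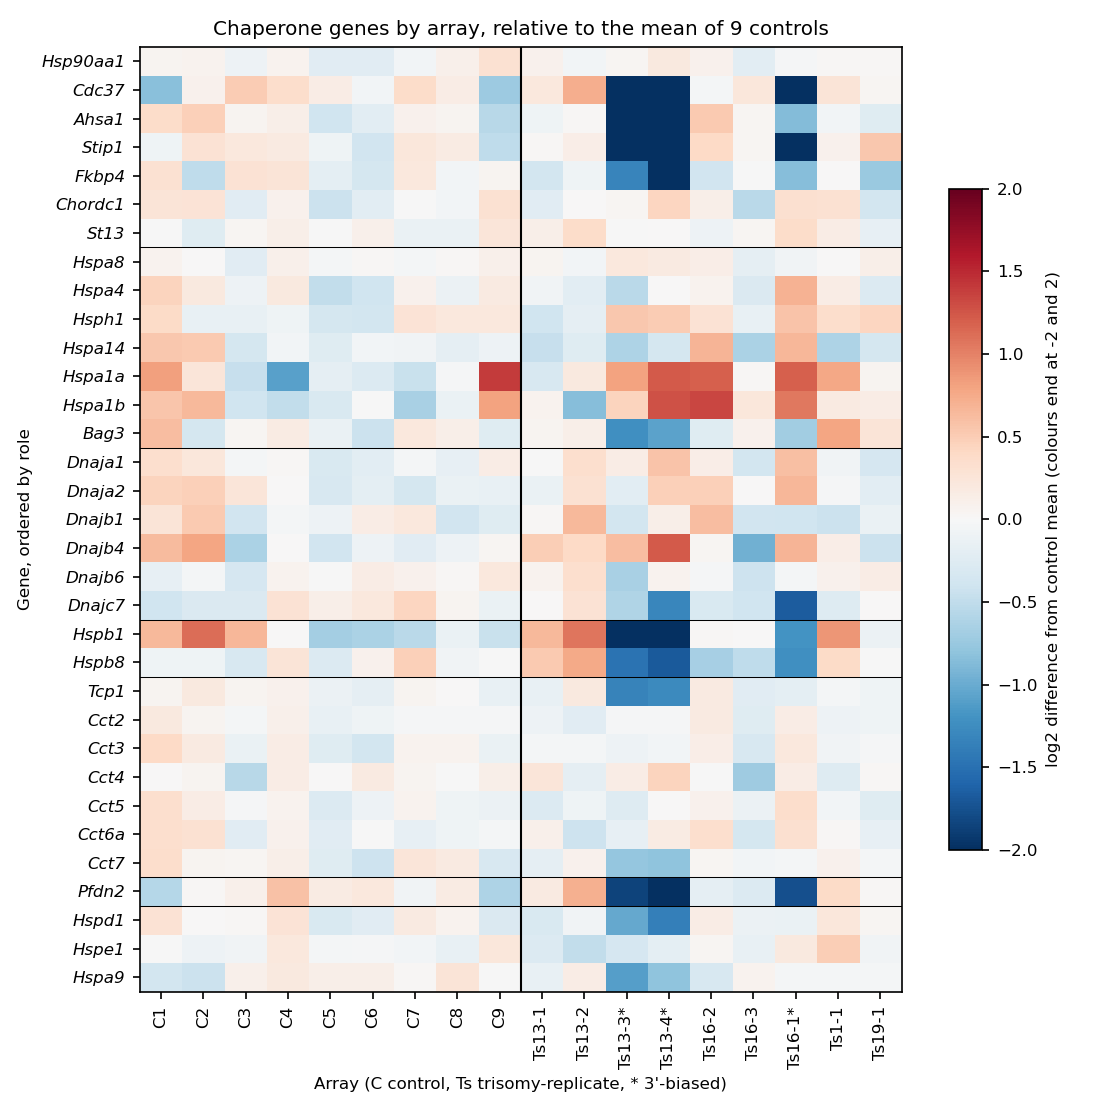
Log2 difference of each of the 33 genes (rows, ordered by role) from the mean of the 9 controls on each of the 18 arrays (columns). Controls and intact trisomic arrays show pale colours in most rows, while the 3 starred 3′-biased arrays show deep blue for Cdc37, Stip1 and Pfdn2.

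Each trisomy alone gave the same count on intact arrays. Trisomies 1 and 19 have a single array, which is assumed to vary like the other groups. In trisomy 13 (replicates 1 and 2), 0 of 33 members passed, where 0.284% of genes did, and 2 had an unadjusted p under 0.05, against 730 of all 7382 genes. The median was 0.00 for members and 0.00 for all genes. In trisomy 16 (replicates 2 and 3), 0 passed by limma, where 0.0271% of genes did, with 1 unadjusted member against 686 genes and medians of -0.03 and -0.11. In trisomy 1, 0 passed by limma, where 0.0542% of genes did, with 2 unadjusted members against 686 genes and medians of 0.08 and 0.05. In trisomy 19, 0 passed by limma, where 0% of genes did, with 1 unadjusted member against 248 genes and medians of -0.05 and -0.08. The single trisomy 1 array lay outside the range of all controls for 4 members (Hspe1 and Bag3 above, Hspa14 and Dnajb1 below; 12.1%, where 24.8% of genes did), and the trisomy 19 array for 5 (Hspa8, Hsph1 and Stip1 above, Fkbp4 and Dnaja1 below; 15.2%, where 18% did). The design could see only large changes of single genes: the median member's 95% interval in trisomy 13 or 16 reached 0.45 to either side of its estimate, and the widest, that of Hspa1a, reached 1.08. With the single array of trisomy 1 or 19 these were 0.61 and 1.45.

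The stress-inducible Hsp70 genes were among the most variable members. Hspa1a encodes an Hsp70 that is made on heat shock. Its signal was 5.55, 6.46 and 8.05 at the lowest, median and highest control, 6.33 and 6.84 on the intact and 7.46 and 7.88 on the biased trisomy 13 arrays. It was 7.85 and 6.67 on the intact and 7.84 on the biased trisomy 16 arrays, 7.42 in trisomy 1 and 6.71 in trisomy 19. All trisomic arrays lay inside the control range, which was 2.50 log2 units wide and the widest of the members. The limma difference was -0.06 (95% interval -1.14 to 1.02) in intact trisomy 13, 0.61 (-0.47 to 1.69) in intact trisomy 16 and 1.02 ± 0.51 (SE, adjusted p = 0.13) on the biased trisomy 13 arrays.

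Hspa1b, the near-copy of Hspa1a, stood higher in trisomy 16 in each of the 3 pairs with a same-numbered control. Control signals were 9.90, 10.42 and 11.35 (lowest, median, highest). Trisomy 16 arrays read 11.89 and 10.78 (intact) and 11.61 (biased), and trisomy 13 arrays read 10.62 and 9.71 (intact) and 11.003 and 11.83 (biased). Trisomy 1 read 10.74 and trisomy 19 read 10.69. One intact trisomy 16 array stood above all controls and the other inside their range, while 1 intact trisomy 13 array stood below all controls.

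Trisomy 16 and control arrays of the same replicate number deviated together (correlations of 0.68, 0.51 and 0.83 across genes), so the 3 pairs were also compared within themselves. The pairs were thus chosen from the same values that were then tested, and their fit was added after the planned ones. The Hspa1b difference was 0.51, 0.69 and 0.63 in pairs 1, 2 and 3, higher in 3 of 3, with pair 1 holding the biased array. The other 2 probe sets of Hspa1b gave 0.59 to 0.94 and 0.65 to 0.77, also higher in 3 of 3. Hspa1a differed by 0.38, 0.95 and 0.49. Because these near-identical genes can share probes, they are not independent of each other. The size depends on which controls are matched: by the first number of the titles, trisomy 16 replicates 1 and 3 both go with control replicates 1 and 3. Against the mean of those controls, trisomy 16 replicate 3 differed by 0.15 for Hspa1b and -0.15 for Hspa1a, and its Hspa1b signal of 10.78 lay below the 11.10 of control replicate 1. The biased replicate 1 differed by 0.99 and 1.02. Of the other members, St13 was also higher in all 3 pairs, by 0.01 in pair 3. Hspb1, Hspb8, Dnajc7, Cct3, Cct7, Tcp1, Cdc37 and Pfdn2 were lower in all 3. Several of these differences were very small, in pair 2 -0.02 for Dnajc7, -0.05 for Cct3, -0.01 for Cct7 and -0.02 for Tcp1. In pair 1, with the biased array, Dnajc7, Cdc37 and Pfdn2 differed by -1.27, -4.28 and -1.19. The share of all genes with the same sign in all 3 pairs was not counted.

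Hspb1, the small heat shock protein Hsp27, differed by -1.85, -1.08 and -0.65 in the same pairs, lower in 3 of 3. Control replicates 1, 2 and 3 of these pairs read 12.69, 13.15 and 12.71, where the other controls read 11.35 to 12.05. Against all 9 controls the intact trisomy 16 difference of Hspb1 was 0.02. With the 2 intact pairs as blocks, limma gave 0.66 ± 0.11 (SE) for Hspa1b (adjusted p = 0.017) and -0.87 ± 0.12 for Hspb1 (adjusted p = 0.0073), the only members of 33 to pass. Matched by the first title number, Hspb1 differed by -1.86 in replicate 1 and -0.65 in replicate 3. The paired fit has 1 residual degree of freedom and called 5.74% of all genes, close to the members' 6.06%. With all 3 pairs, 0 members and 0 genes passed by limma (4 members and 696 genes at an unadjusted p under 0.05), and the adjusted p was 0.24 for Hspa1b and 0.23 for Hspb1.

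**Figure D2:**
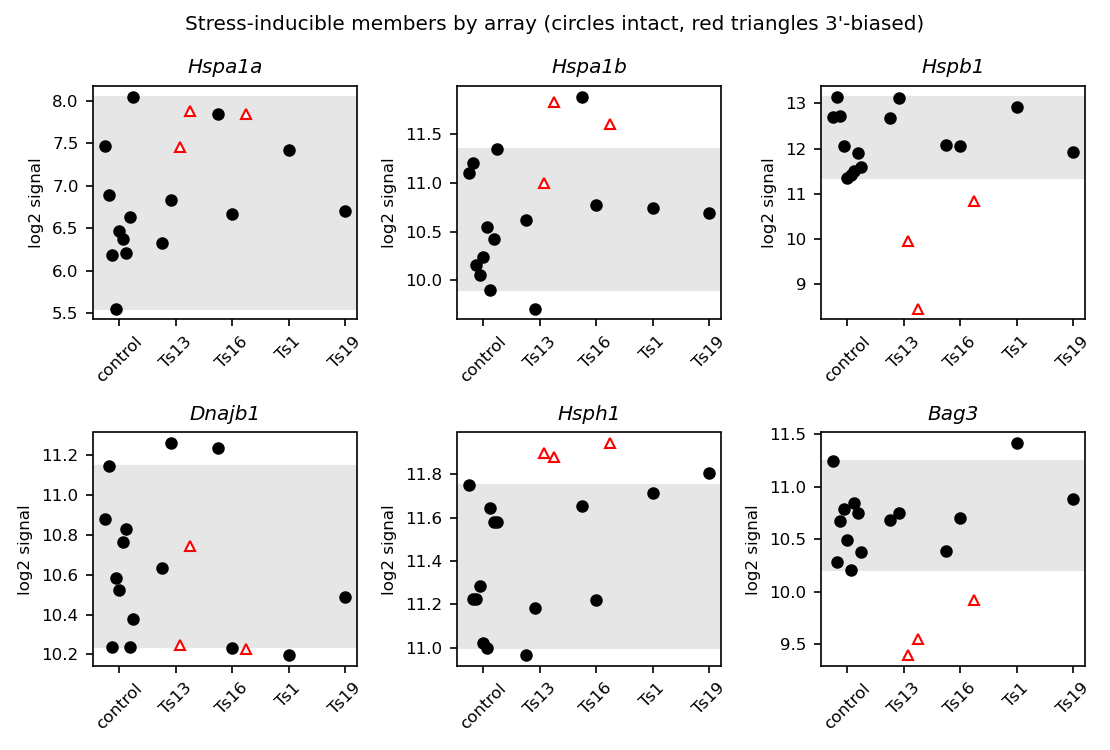
Log2 signal of 6 stress-inducible genes on each array, by group; circles are intact arrays, red triangles 3′-biased arrays, and the grey band spans the 9 controls. Hspb1 and Bag3 lie below the band on the 3 biased arrays, Hsph1 above it, and 27 of the 36 circles of the intact trisomic arrays lie within it.

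Hspb1 had a wide range in the controls, 11.35, 11.90 and 13.15. The intact trisomic arrays all fell inside it, at 12.68 and 13.12 in trisomy 13, 12.07 and 12.06 in trisomy 16, 12.92 in trisomy 1 and 11.92 in trisomy 19. The biased arrays read 9.95 and 8.45 in trisomy 13 and 10.84 in trisomy 16, all below every control. The difference was 0.86 (95% interval -0.11 to 1.82) in intact trisomy 13 and -2.84 ± 0.45 (adjusted p = 0.00020) on its biased arrays.

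Hspb8 is a small heat shock protein that works with Bag3 to clear misfolded proteins. Its probe set of highest signal lay on opposite sides of the controls in intact trisomies 13 and 16. Controls read 9.55, 9.80 and 10.35. Intact trisomy 13 arrays read 10.39 and 10.62, both above all controls, and intact trisomy 16 arrays read 9.21 and 9.36, both below all controls. Such separation upward was seen for 4.2% of genes in trisomy 13 and downward for 3.63% in trisomy 16, and 2 arrays against 9 can give no exact permutation p below 0.036, the two-sided value here. The differences were 0.63 ± 0.21 (adjusted p = 0.31) and -0.58 ± 0.21 (adjusted p = 0.37). Their own difference, 1.22 ± 0.27, had the lowest adjusted p of the members between trisomies 13 and 16 (limma, 0.076, where 0.233% of 6862 genes passed), so it did not pass either. On the biased arrays Hspb8 read 8.39, 8.19 and 8.64, on trisomy 1 10.26 and on trisomy 19 9.86. The other probe sets of Hspb8 differed by 0.32 and -0.06 in intact trisomy 16, with the arrays inside the control range on each. In intact trisomy 13 they differed by 1.48 and 0.16.

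Bag3, the co-chaperone that links Hsp70 to Hspb8, was 10.21, 10.67 and 11.24 in controls. Its signal was 11.41 in trisomy 1, above all controls, 10.89 in trisomy 19, 10.68 and 10.75 in intact trisomy 13 and 10.39 and 10.71 in intact trisomy 16. The biased arrays, at 9.40, 9.56 and 9.93, lay below all controls. The trisomy 1 difference was 0.79 (95% interval 0.12 to 1.46, limma adjusted p = 0.43).

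Hsph1, an Hsp110 that reloads Hsp70, read 10.997, 11.28 and 11.75 in controls. Intact trisomy 13 arrays read 10.96 and 11.18, intact trisomy 16 arrays 11.65 and 11.22, trisomy 1 11.71 and trisomy 19 11.80. The biased arrays, at 11.90, 11.88 and 11.94, were above all controls, as was trisomy 19 by a small margin, and intact trisomy 13 replicate 1 was below them. Hspa4, a second Hsp110-type partner of Hsp70, was 13.02, 13.60 and 13.95 in controls, 13.43, 13.30, 12.97 and 13.52 in trisomy 13 replicates 1 to 4, and 14.21, 13.59 and 13.22 in trisomy 16 replicates 1 to 3. Trisomies 1 and 19 read 13.66 and 13.23, so 2 biased arrays lay outside the control range, on opposite sides. Hspa14, an Hsp70 bound to ribosomes, read 10.14, 10.42 and 11.03 in controls and 10.03 and 10.24 (intact) and 9.87 and 10.15 (biased) in trisomy 13. It read 11.17 and 9.85 (intact) and 11.16 (biased) in trisomy 16, 9.87 in trisomy 1 and 10.14 in trisomy 19. The intact trisomy 16 arrays lay on opposite sides of the control range. Under a block by replicate number, which does not pair the trisomy 13 cultures, Hspa14 passed by limma in intact trisomy 13 (-0.94 ± 0.21, adjusted p = 0.030) and over all intact trisomic arrays (-0.68 ± 0.16, adjusted p = 0.044). The same block raised the count over all genes from 21 to 819 and from 2 to 427. Hspa8, the constitutive Hsp70, varied by 0.33 log2 units over the controls, and its differences ran from -0.07 to 0.20 over the 6 comparisons with controls of 1 trisomy and RNA class.

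The 6 Hsp40 co-chaperones, which bring clients to Hsp70, differed from controls by -0.45 to 0.45 over the 4 comparisons of intact arrays, and none passed. Dnajb1, the main stress-inducible Hsp40, read 10.24, 10.58 and 11.14 in controls, 10.64 and 11.26 in intact trisomy 13 and 11.23 and 10.23 in intact trisomy 16. It was 10.24 and 10.74 on the biased trisomy 13 arrays, 10.23 on the biased trisomy 16 array, 10.20 in trisomy 1 and 10.49 in trisomy 19. In trisomies 13 and 16 alike, 1 intact array stood above all controls, while the other was inside their range in trisomy 13 and just below it in trisomy 16. Trisomy 1 and the biased trisomy 16 array were also just below all controls. Dnajb4, also inducible by heat, read 11.13, 11.66 and 12.56 in controls, 12.26, 12.16, 12.39 and 12.99 in trisomy 13 replicates 1 to 4 and 12.44, 11.81 and 10.81 in trisomy 16 replicates 1 to 3. Trisomies 1 and 19 read 11.90 and 11.33, so all 4 trisomy 13 arrays lay in the upper part of the control range or above it.

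Dnaja1, a constitutive Hsp40, read 12.66, 12.93 and 13.30 in controls, 12.96, 13.29, 13.11 and 13.54 in trisomy 13, and 13.57, 13.10 and 12.60 in trisomy 16, with trisomies 1 and 19 at 12.88 and 12.62. Dnaja2, its paralog, read 11.46, 11.68 and 12.29 in controls, 11.68, 12.11, 11.61 and 12.28 in trisomy 13, and 12.47, 12.29 and 11.83 in trisomy 16, with trisomies 1 and 19 at 11.79 and 11.60. For both genes the biased trisomy 16 array stood above all controls, as did trisomy 13 replicate 4 for Dnaja1 and, by less than 0.01, trisomy 16 replicate 2 for Dnaja2. Trisomy 16 replicate 3 and trisomy 19 stood just below the controls for Dnaja1. Dnajc7, which shuttles clients between Hsp70 and Hsp90, read 10.03, 10.48 and 10.85 in controls, 10.43 and 10.70 in intact trisomy 13, 10.11 and 10.02 in intact trisomy 16, 10.17 in trisomy 1 and 10.42 in trisomy 19. The biased arrays, at 9.82, 9.12 and 8.76, were below all controls, and trisomy 16 replicate 3 was just below the lowest control. Dnajb6 differed from controls by -0.29 to 0.20 over the 6 comparisons on its probe set of highest signal. Its 3 probe sets above the filter ran from -1.67 to -0.26 on the biased trisomy 13 arrays.

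Hsp90aa1, the inducible cytosolic Hsp90, was among the steadiest members on its probe set of highest signal, with differences of -0.06 to 0.12 over the 6 comparisons. The other probe sets of Hsp90aa1 differed by -0.79 and -1.04 on the biased trisomy 13 arrays. They differed by -0.31 to 0.27 in intact trisomies 13 and 16 and on the biased trisomy 16 array. With its 6 co-chaperones among the members, the differences ran from -0.75 to 0.54 over the 4 comparisons of intact arrays, and none passed, while 4 of the 7 genes fell on the biased trisomy 13 arrays, where 20.1% of all genes fell. Cdc37, which hands kinases to Hsp90, read 11.52, 12.50 and 12.86 in controls, 12.56 and 13.08 in intact trisomy 13, 12.31 and 12.59 in intact trisomy 16, 12.62 in trisomy 1 and 12.39 in trisomy 19. On the biased arrays it read 9.58, 7.87 and 7.23, below every control, and the intact trisomy 13 replicate 2 was above them. Ahsa1, which speeds up the Hsp90 ATPase, read 11.02, 11.64 and 12.05 in controls, 11.49 and 11.60 in intact trisomy 13, 12.11 and 11.62 in intact trisomy 16, 11.52 in trisomy 1 and 11.33 in trisomy 19. Its biased arrays read 8.38 and 8.47 in trisomy 13 and 10.72 in trisomy 16, again below every control, and intact trisomy 16 replicate 2 was just above them.

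Fkbp4, a peptidyl-prolyl isomerase of steroid receptor complexes, read 10.40, 10.96 and 11.21 in controls, 10.54 and 10.82 in intact trisomy 13, 10.53 and 10.89 in intact trisomy 16 and 10.91 in trisomy 1. Trisomy 19, at 10.16, was below all controls, with a difference of -0.75 ± 0.33 that did not pass (limma adjusted p = 1.0), and so were the biased arrays, at 9.60, 8.91 and 10.06. Chordc1, whose 3-unit heat shock element spans its start site, read 11.21, 11.64 and 11.95 in controls, 11.41, 11.65, 11.68 and 12.07 in trisomy 13, 11.96, 11.76 and 11.11 in trisomy 16, 11.94 in trisomy 1 and 11.27 in trisomy 19. The biased trisomy 13 replicate 4 and trisomy 16 replicate 1 stood above all controls, and the intact trisomy 16 replicate 3 below them. St13 differed by -0.16 to 0.36 over the 6 comparisons.

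The chaperonin subunits lay close to the controls on intact arrays. TRiC/CCT is a double ring of related subunits that folds actin and tubulin, and 7 of them are members. On intact arrays their differences ran from -0.36 to 0.09, with a median of -0.05, and 0 of 7 passed by limma in any of the 4 comparisons. Cct4 read 14.16, 14.76 and 14.88 in controls, 14.94, 14.53, 14.86 and 15.15 in trisomy 13, 14.86, 14.70 and 13.99 in trisomy 16, 14.44 in trisomy 1 and 14.73 in trisomy 19. Trisomy 16 replicate 3 was below all controls, trisomy 13 replicates 1 and 4 were above them, and control replicate 3 was the lowest control. On their probe sets of highest signal, Cct2, Cct3, Cct5 and Cct6a stayed within -0.24 and 0.35 over all 6 comparisons. The 4 probe sets of Cct3 above the filter ran from -6.23 to 0.03 on the biased trisomy 13 arrays and from -1.41 to 0.51 on the biased trisomy 16 array.

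Cct8, a subunit on chromosome 16 that is not among the members, gives the dosage reference for this complex. Its signal was 12.89, 13.26 and 13.76 in controls, 14.07 and 13.76 on the intact and 14.21 on the biased trisomy 16 arrays. The difference on intact arrays was 0.59 (limma adjusted p = 0.37), near the log2 of 1.5 (0.58) and at percentile 51.4 of the 243 genes tested on chromosome 16. Its 7 fellow subunits, on other chromosomes, had a median difference of -0.02 on the same arrays, the highest being -0.01.

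None of the members lies on chromosome 13 or 16, so their values there are not set by their own copy number. Chromosome 1 holds Hspd1, Hspe1 and Pfdn2, and chromosome 19 holds Stip1. Hspd1, mitochondrial Hsp60, read 13.83, 14.16 and 14.41 in controls and 14.35 in trisomy 1, inside the control range. Hspe1, its lid Hsp10, read 13.89, 14.00 and 14.27 in controls and 14.53 in trisomy 1, above all of them. Pfdn2, a subunit of prefoldin that delivers unfolded actin to the chaperonin, read 10.77, 11.48 and 11.97 in controls and 11.77 in trisomy 1.

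The differences in trisomy 1 were 0.22 ± 0.23 for Hspd1, 0.49 ± 0.16 for Hspe1 and 0.39 ± 0.38 for Pfdn2 (SE, limma adjusted p = 0.87, 0.32 and 0.86). They lay at percentiles 18.1, 34.8 and 27.3 of the 414 genes tested on chromosome 1. The median of those genes was 0.70 and their quartiles were 0.33 and 1.10. Against control replicate 9 alone, which shares the first number of its title with the trisomy 1 culture, the differences were 0.51, 0.26 and 1.00. The order of the 3 genes changed. That control had the highest Gapdh difference of the intact arrays, 1.41, against 0.60 in trisomy 1, and the lowest Pfdn2 signal of the controls, 10.77. The part of RNA quality in these values was not tested. Stip1, the Hop protein that joins Hsp70 to Hsp90, read 10.16, 10.85 and 10.96 in controls and 11.22 in trisomy 19, above all of them. Its difference of 0.54 ± 0.34 (limma adjusted p = 1.0) lay at percentile 43.5 of the 260 genes tested on chromosome 19 (median 0.58). With a single array for each, none of these 4 differences passed the test.

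**Figure D3:**
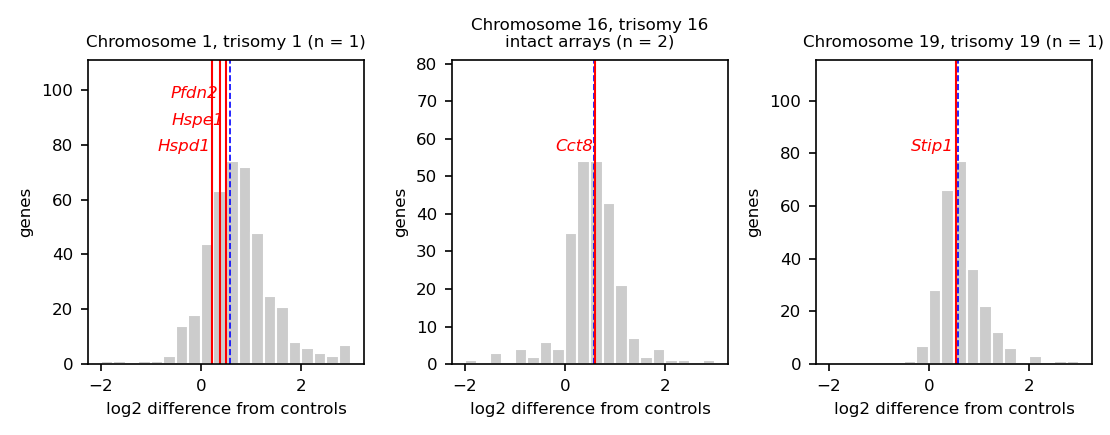
Number of genes by log2 difference from the 9 controls (bins of 0.25, end bins collecting the rest) for the genes of the extra chromosome in trisomy 1, trisomy 16 (intact arrays) and trisomy 19; red lines mark the named genes and the dashed blue line the log2 of 1.5. Hspd1 (0.22), Pfdn2 (0.39) and Hspe1 (0.49) lie left of the chromosome 1 median of 0.70, and Stip1 (0.54) and Cct8 (0.59) near the middle of theirs.

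On the other trisomic arrays, Hspd1 read 13.83 and 14.06 in intact and 13.11 and 12.76 in biased trisomy 13, 14.28 and 14.01 in intact and 13.99 in biased trisomy 16, and 14.17 in trisomy 19. Hspe1 read 13.76 and 13.55 in intact and 13.69 and 13.85 in biased trisomy 13, 14.07 and 13.88 in intact and 14.23 in biased trisomy 16, and 13.96 in trisomy 19. All 4 trisomy 13 arrays of Hspe1 were below all controls on this probe set, and trisomy 16 replicate 3 was just below them. On the second probe set of Hspe1 trisomy 13 replicate 2, at 12.37, was inside the control range of 12.27 to 12.71, and replicates 1, 3 and 4 were below it. The share of genes with all 4 trisomy 13 arrays apart from the controls was not counted. Downward separation of the 2 intact arrays was seen for 4.23% of genes, and the intact difference of -0.38 ± 0.12 had the lowest adjusted p of the members in intact trisomy 13 (limma, 0.28). Hspa9, the mitochondrial Hsp70 mortalin, read 13.24, 13.76 and 13.92 in controls, 13.52 and 13.83 in intact and 12.56 and 12.86 in biased trisomy 13, and 13.34 and 13.74 in intact and 13.63 in biased trisomy 16. Trisomies 1 and 19 read 13.63 and 13.62, so the 2 biased trisomy 13 arrays were the only ones outside the control range of Hspa9.

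The remaining arrays of Pfdn2 read 11.56 and 12.09 in intact and 9.53 and 8.80 in biased trisomy 13, 11.20 and 11.10 in intact and 9.63 in biased trisomy 16, and 11.40 in trisomy 19. Those of Stip1 read 10.70 and 10.81 in intact and 7.43 and 6.59 in biased trisomy 13, 11.08 and 10.72 in intact and 6.56 in biased trisomy 16, and 10.76 in trisomy 1. For both genes the 3 biased arrays were below every control, and 1 intact array was above them, trisomy 13 replicate 2 for Pfdn2 and trisomy 16 replicate 2 for Stip1. Tcp1, the founding chaperonin subunit, read 13.60, 13.83 and 13.98 in controls, 13.64 and 13.97 in intact and 12.45 and 12.51 in biased trisomy 13. It read 13.96 and 13.56 in intact and 13.59 in biased trisomy 16, 13.75 in trisomy 1 and 13.70 in trisomy 19. Cct7 read 13.02, 13.49 and 13.79 in controls, 13.25 and 13.53 in intact and 12.67 and 12.63 in biased trisomy 13, 13.48 and 13.38 in intact and 13.41 in biased trisomy 16, 13.52 in trisomy 1 and 13.39 in trisomy 19. Both subunits were below all controls on the biased trisomy 13 arrays, and trisomy 16 replicates 1 and 3 were just below them for Tcp1.

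On the 3′-biased arrays many members were low, and the counts were as given here. In trisomy 13 (replicates 3 and 4), 14 of 33 members passed by limma (42.4%, where 35.6% of all genes did): 13 fell (39.4%, against 20.1% of genes) and 1 rose (3.03%, against 15.6%). The median difference was -0.27 for the members and 0.10 for all genes. The 13 that fell were Stip1 (-3.67 ± 0.25), Cdc37 (-3.63 ± 0.39), Ahsa1 (-3.16 ± 0.24), Hspb1 (-2.84 ± 0.45), Pfdn2 (-2.22 ± 0.28), Fkbp4 (-1.65 ± 0.24), Hspb8 (-1.58 ± 0.21), Tcp1 (-1.31 ± 0.13), Hspd1 (-1.20 ± 0.17), Bag3 (-1.15 ± 0.23), Hspa9 (-0.96 ± 0.18), Dnajc7 (-0.95 ± 0.24) and Cct7 (-0.79 ± 0.18), in log2 units with SE. Their adjusted p lay between 4.5e-08 for Stip1 and 0.0069 for Dnajc7. Dnajb4 rose by 0.92 ± 0.33 (adjusted p = 0.040), a call that held under 7 of 10 alternatives. Its second probe set differed by 0.20, with trisomy 13 replicate 3, at 9.80, below the control mean of 10.11. The call was lost without any 1 of control replicates 4 to 8 (adjusted p of 0.053 to 0.057). It was also lost without trisomy 13 replicate 3 (difference 1.22) and without replicate 4 (0.62), which leaves 1 biased array. Without trisomy 13 replicate 4, Cct7 (adjusted p = 0.053) and Dnajc7 (0.22) were lost too.

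The biased trisomy 16 group is the single replicate 1, so its SE and adjusted p take their spread from the other groups, on the assumption that it varies like them. There 5 members passed by limma (15.2%, where 13% of all genes did), all lower, where 9.35% of genes were lower. They were Cdc37 at -5.12 ± 0.53, Stip1 at -4.12 ± 0.34, Pfdn2 at -1.76 ± 0.38, Dnajc7 at -1.66 ± 0.33 and Hspb8 at -1.23 ± 0.28 (SE, adjusted p between 3.8e-06 for Stip1 and 0.010 for Hspb8). With the replicate number as a block, Pfdn2, Dnajc7 and Hspb8 no longer passed (adjusted p = 0.12, 0.13 and 0.13). The median difference was -0.03 for the members and 0.19 for all genes. Members outside the range of all controls numbered 16 of 33 on the biased trisomy 13 arrays (48.5%, where 35.8% of genes were) and 20 of 33 on the trisomy 16 array (60.6%, where 50.5% were).

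Within trisomy 13, where every culture carries the same extra chromosome, the biased arrays were also set against the intact ones. Of the 33 members 14 passed by limma, where 22.4% of genes did: 13 were lower, where 16.1% of genes were, and Hsph1 was higher by 0.82 ± 0.27 (adjusted p = 0.039), where 6.35% of genes were higher. Stip1 differed by -3.75 ± 0.32, Cdc37 by -4.09 ± 0.50, Hspb1 by -3.70 ± 0.58 and Hspb8 by -2.22 ± 0.27, the last with an adjusted p of 2.8e-05. With 1 array left out, the counts of members and of all genes were both lowest without trisomy 13 replicate 2, which leaves 1 intact trisomy 13 array. The Hsph1 call was lost without control replicate 4 (adjusted p = 0.050) and without any 1 of the 4 trisomy 13 arrays (0.094 to 0.16).

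**Figure D4:**
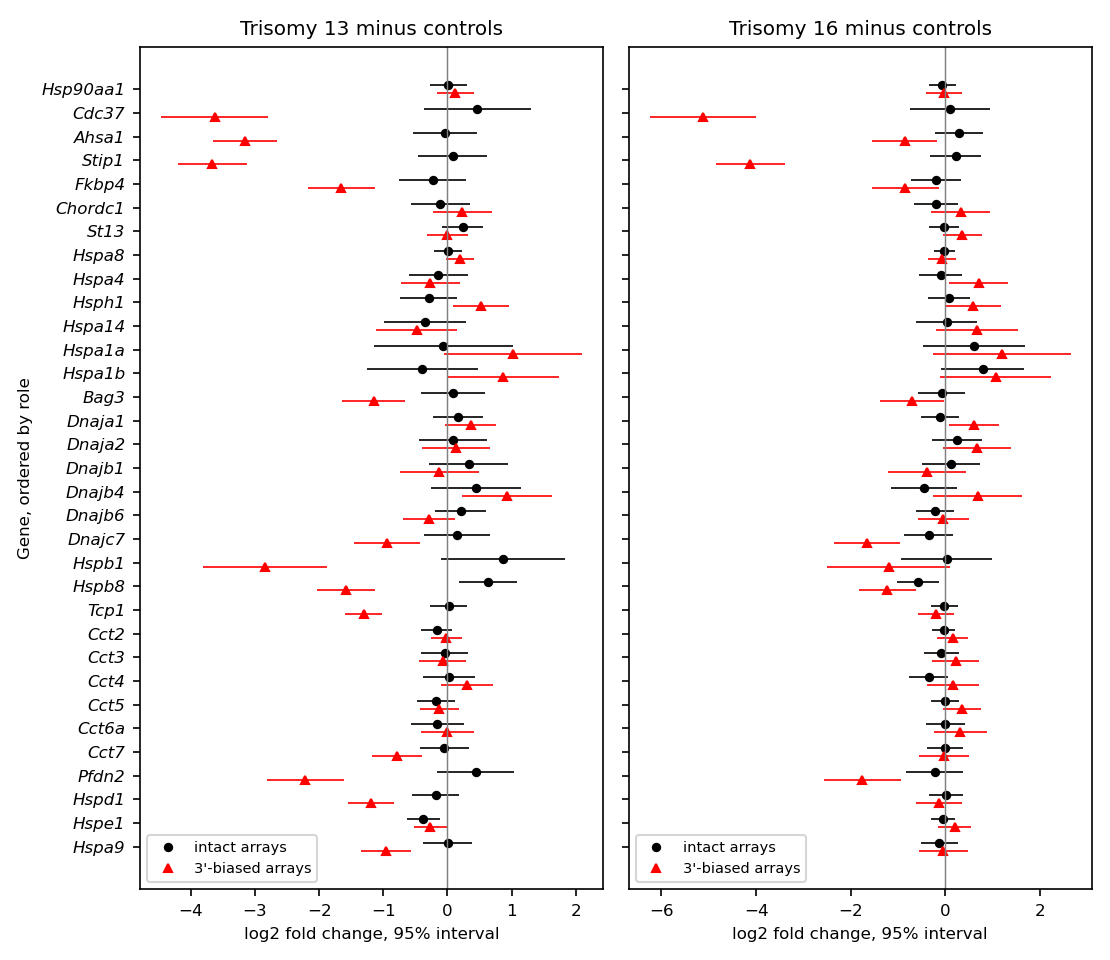
Log2 fold change of each of the 33 genes against the 9 controls, with its 95% interval, for trisomy 13 (left; 2 intact and 2 biased arrays) and trisomy 16 (right; 2 intact and 1 biased array). The black circles of the intact arrays lie between -0.58 and 0.86, while the red triangles of the biased arrays reach -3.67 in trisomy 13 and -5.12 in trisomy 16.

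Probe sets of the same gene disagreed on the biased arrays. Of the members, 21 have at least 2 probe sets whose mean lies above the filter. The spread between the highest and lowest difference from controls within a gene had a median of 0.97 log2 units on the biased trisomy 13 arrays and 0.57 on the biased trisomy 16 array, against 0.23 and 0.36 on the intact arrays of the same trisomies. It was over 1 for 9, 6, 1 and 2 of the 21 genes in that order. The 4 probe sets of Cct3 ran from -6.23 to 0.03 on the biased trisomy 13 arrays, those of Hspb8 from -4.81 to -0.06, those of Hspa9 from -2.50 to 0.11 and those of Hsph1 from -0.52 to 0.52. With the second probe set of each gene, Cdc37 (0.46), Hspa9 (0.11) and Hspb8 (-0.06) were no longer lower by the test, although Cdc37's second probe set had a mean of only 4.36 in controls. The position of each probe set along its transcript was not analysed here, and the part of RNA quality in the size of these differences was not tested.

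**Figure D5:**
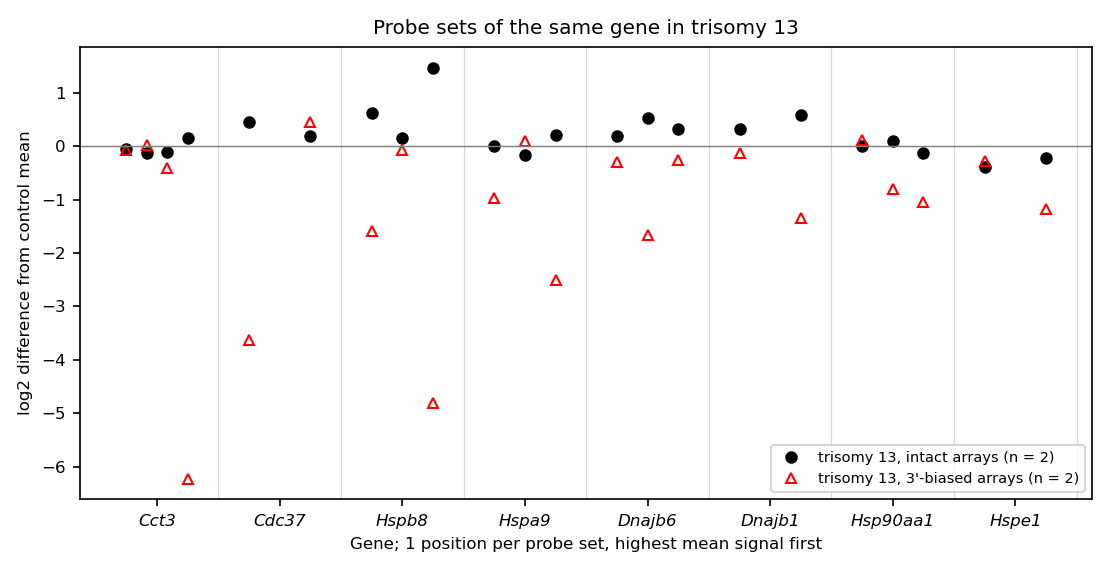
Log2 difference from the control mean for each probe set of 8 genes in trisomy 13, with 1 horizontal position per probe set, for the mean of the 2 intact (black circles) and the 2 biased arrays (red triangles). Within Cct3 the biased arrays run from -6.23 to 0.03 and within Hspb8 from -4.81 to -0.06, while the intact arrays stay closer together in most genes.

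With intact and biased arrays pooled, 0 members passed by limma in trisomy 13, where 1.76% of genes did (9 members and 1617 genes at an unadjusted p under 0.05). The lowest adjusted p was 0.080, for Hspd1 at -0.69 ± 0.20. The count rose to 2 without trisomy 13 replicate 1 (Hspd1 and Ahsa1) and to 6 without replicate 2 (Cct7, Fkbp4, Hspd1, Hspa9, Tcp1 and Ahsa1), all lower, while the count over all genes rose too, from 130 to 310 and 734. In trisomy 16, 0 members passed by limma, where 0.0406% of genes did (2 members and 516 genes at an unadjusted p under 0.05).

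Other genes of protein quality control, from lists of further cytosolic chaperones (41 genes tested), mitochondrial chaperones, import and proteases (28), chaperones of the endoplasmic reticulum (20) and ubiquitin or autophagy genes of damaged protein handling (12), were tested in the same fits. On intact arrays 0 of these 101 genes passed by limma in any of the 4 trisomies. The medians of the 4 lists in intact trisomy 13 were 0.12, 0.06, 0.02 and 0.26 (all genes 0.00), with 5, 0, 2 and 3 genes at an unadjusted p under 0.05, and in intact trisomy 16 they were -0.11, -0.09, 0.02 and -0.19 (all genes -0.11), with 4, 3, 3 and 1 such genes. On the biased trisomy 13 arrays 12 of the 101 rose (11.9%, where 15.6% of all genes did) and 30 fell (29.7%, against 20.1%). On the biased trisomy 16 array 7 rose (6.93%, against 3.62%) and 15 fell (14.9%, against 9.35%). Among those that fell in trisomy 13, Stub1, the ubiquitin ligase CHIP that marks chaperone clients, differed by -3.89, Sqstm1, an autophagy receptor, by -2.74, Vcp, an unfoldase, by -2.33 and Hspa5, the Hsp70 of the endoplasmic reticulum, by -0.61, all passing the test.

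Genes of dividing cells lay below the control mean in intact trisomy 13 and in trisomies 1 and 19, and their part in the chaperone values was not tested. Of 27 mitosis and replication genes, 27 were below the control mean in intact trisomy 13 with a median of -0.94 (0 passed by limma, 16 at an unadjusted p under 0.05). In trisomy 1, 26 of 27 were below it with a median of -1.05 (0 passed by limma, 10 unadjusted), and in trisomy 19, 25 of 27 with a median of -0.48 (0 passed, 0 unadjusted). Their median was 0.18 in intact trisomy 16, with 6 of 27 below. Over all intact trisomic arrays 23 of the 23 such genes on other chromosomes were below the control mean, with a median of -0.51 (0 passed by limma, 7 unadjusted). Over single arrays their mean ran from 10.30 to 11.54 in controls and from 9.73 to 11.75 on intact trisomic arrays. The mean of the 33 chaperone genes ran from 12.11 to 12.48 in controls and from 12.09 to 12.45 on intact trisomic arrays, against 11.62 to 11.98 on the biased ones.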

How the data were processed

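The submitters' processing notes name the affy package and GCRMA, without versions. The deposited values are log2 expression values per probe set, background-corrected, normalized and summarised by the authors per those notes, and run from 0.968 to 16.6. Nothing states that all arrays were summarised together. A gene was measured by the probe sets listed with it alone (20393 of 22690; 691 were listed with several genes, 1606 with none) and represented by the one with the highest mean. Arrays give no counting depth, and their number limits the precision. An array was called 3′-biased when the Gapdh control probe sets of its 3′ and 5′ ends differed by over 3.

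The fits used limma 3.58.1 under R 4.3.3, with lmFit and a trended eBayes, over all 18 arrays, with trisomies 13 and 16 split by RNA quality (11 residual degrees of freedom), or in 5 groups for pooled arrays (13). The threshold was an adjusted p (Benjamini-Hochberg, over all genes tested, two-sided) under 0.05. The scripts were tested on simulated data. Values per array are given for members that passed in any comparison, lie on an extra chromosome, are stress-inducible, or had 1 of the 3 highest or lowest differences of a comparison. Up to 6 genes of each other list that passed, by p, could be named, and Cct8. The members and lists were chosen with earlier results of these data known. In a fit added after the planned ones, trisomy 16 and control arrays of the same replicate number were taken as pairs because their deviations correlated at 0.51 to 0.83. Those of trisomy 13 correlated at -0.39 to -0.11 and were not. None of those trisomy 13 and control arrays shared the first number of their titles. The correlation of trisomy 13 arrays with controls that do share it was not computed. Against control replicate 4, which shares it, intact trisomy 13 replicate 1 was higher in 10 of 33 members (median -0.16). Against the mean of control replicates 5 and 6, intact replicate 2 was higher in 26 of 33 (median 0.27). The shares over all genes were not counted. Alternatives covered the filter, the probe set rule, scaling, the trend, blocks, the samples in the fit and each array left out. Promoter sequences are from RefSeq (GRCm38.p6).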

Additional observations from a re-analysis of the deposited data

Results flagged for a closer look

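Control replicate 3 stood apart from the other controls in 2 members. Its Hspa8 signal was 14.97, where the other 8 controls read 15.15 to 15.30, and its Cct4 signal was 14.16, where the others read 14.70 to 14.88. These were the only 2 of 66 groups of 4 or more arrays, 1 per gene and group, whose extreme array lay farther from its neighbour than Dixon's 95% limit allows. Chance alone marks about 1 group in 20.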

How the results depend on the processing

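Counts of members that passed on intact arrays stayed at 0 in trisomies 1 and 19 under all alternatives and left-out arrays. With the replicate number as a block (3 residual degrees of freedom), 1 passed in intact trisomy 13 (Hspa14, -0.94; median of members -0.17), 1 over all intact trisomic arrays (Hspa14, -0.68; median -0.19) and 1 between trisomies 13 and 16 (Hspa1b, -1.90). The same block moved the member median to -0.25 in trisomy 19 and to 0.14 between biased and intact trisomy 13 arrays, and the first title number as a block moved it to 0.14 on the biased trisomy 16 array. The pair block alone gave the 2 calls in intact trisomy 16 and changed no member call over all trisomy 16 arrays. Means of all probe sets moved the member median on biased trisomy 13 arrays from -0.27 to -0.57 and that between biased and intact arrays from -0.13 to -0.56, and called Hspe1 in pooled trisomy 13 (1 member), as did quantile normalization (1). The second probe set left 3 members on the biased trisomy 16 array and turned the direction of Cdc37 (0.46 in trisomy 13, 0.30 in trisomy 16, 0.26 between biased and intact arrays), Hspa9 (0.11 and 0.27) and Hsph1 (-0.12 between biased and intact arrays); the cause was not tested. Leaving out 1 array gave counts of 11 to 15 on biased trisomy 13 arrays, 8 to 14 between biased and intact arrays and 0 to 6 in pooled trisomy 13. The member median then ran from -0.37 to -0.024 on biased trisomy 13 arrays, from -0.29 to -0.016 between biased and intact arrays, from -0.18 to 0.084 in intact trisomy 16 and from -0.16 to 0.19 between trisomies 13 and 16. The block by replicate number also raised the count over all genes from 21 to 819 in intact trisomy 13, from 4 to 434 in trisomy 1, from 0 to 262 in trisomy 19, from 2 to 427 over all intact trisomic arrays and from 16 to 464 between trisomies 13 and 16. The median member's 95% interval reached 0.45 log2 units to either side with 2 arrays a group and 0.61 with 1, which limits what could be seen.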
